A study of Drosophila melanogaster with 2 samples.

Results

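The nuclear tRNA genes of Drosophila melanogaster were examined for nearby regions bound by a p53-eGFP fusion protein in embryos. All genes annotated as tRNA by Ensembl on the nuclear chromosomes were taken, which gave 290 of the 18164 genes on the 6 chromosome arms once transposable elements were left out. The other 22 annotated tRNA genes are mitochondrial and were not included. The rule for membership used the annotation alone and no measured value.

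Chromatin immunoprecipitation with sequencing (ChIP-seq) was done on whole embryos of mixed sex, aged 0 to 24 h, in 2 biological replicates numbered 2 and 3. The flies, of the strain p53-MiMIC-GFP, carry an intronic eGFP exon in p53, so the fusion is made from the endogenous gene. Chromatin was sonicated to fragments of 200 to 800 bp and precipitated with an anti-GFP antibody, although 1 label field names p53 as the antibody. Both replicates form 1 group, no embryos without the fusion and no second condition were used here, and each list averages over all the cells and ages of a pooled embryo collection. Peak lists hold no expression values, so the labelled tissue could not be checked against markers, and the number of reads behind a region is unknown.

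Each list gives regions with a summit and the authors' signal value, a measure of peak strength of unstated scaling. The final list, selected by the irreproducible discovery rate (IDR), held 2290 peaks, which were the 2290 strongest of 26752 pooled regions. The replicates' own lists held 30000 regions each and included weak ones, since a deposited q-value of 0.01 or less was held by 1847 regions in replicate 2, 4186 in replicate 3 and 3355 in the pool.

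Transfer RNAs carry amino acids to the ribosome, and their genes are short and are transcribed by RNA polymerase III (Pol III). The promoter lies inside the gene, in an A box and a B box that bind the factor TFIIIC, which brings in TFIIIB (in the fly Brf, Bdp1 and the TBP-related factor Trf). Transcription ends at a run of T just after the gene. In mammalian cells p53 is known to bind TFIIIB and to lower Pol III transcription, and flies have a single p53 gene known for its response to DNA damage. Most tRNA genes exist as several identical copies, often in clusters.

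The tRNA genes on which the results turn are shown 5′ to 3′ on their own strand, from the RefSeq Release 6 (dm6) genome. Capitals mark the match to the B box core word GTTCGANNC with at most 1 mismatch. The alanine and proline genes flank the strongest summit that lay at tRNA genes, the glutamine gene stands far from any protein-coding start, and the other proline gene and the tyrosine gene lie beside protein-coding starts.
tRNA:Ala-AGC-2-6: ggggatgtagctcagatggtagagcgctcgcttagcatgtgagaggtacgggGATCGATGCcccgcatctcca
tRNA:Pro-TGG-1-4: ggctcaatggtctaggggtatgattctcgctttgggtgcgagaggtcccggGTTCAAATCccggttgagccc
tRNA:Gln-TTG-2-1: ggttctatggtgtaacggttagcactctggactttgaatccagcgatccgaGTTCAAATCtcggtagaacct
tRNA:Pro-CGG-2-3: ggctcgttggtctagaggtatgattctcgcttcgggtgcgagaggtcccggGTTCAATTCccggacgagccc
tRNA:Tyr-GTA-1-8: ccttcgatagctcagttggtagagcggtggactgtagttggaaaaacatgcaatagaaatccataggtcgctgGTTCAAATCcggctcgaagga

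The first of these genes lies at 3R:17645307-17645379 on the minus strand and the second at 3R:17645610-17645681 on the plus strand, both outside protein-coding genes. The glutamine gene, at X:3427452-3427523 on the minus strand, lies in an intron of CG12535. The second proline gene, at 3L:18618390-18618461 on the plus strand, overlaps an exon of the gene named not. The tyrosine gene, at 3R:8669081-8669174 on the minus strand, lies in an intron shared by the models of CG8036 and p, and is longer because tyrosine tRNA genes hold an intron of their own.

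The exact B box word was present in 160 of 290 tRNA genes (55.2%) and a match with at most 1 mismatch in all 290. In the first 100 bp of the gene, searched on both strands, the exact word was present in 156 of 290 tRNA genes (53.8%) and in 160 of 13945 protein-coding genes (1.15%). The run TTTT followed within 40 bp in 287 of 290 tRNA genes (99.0%). This run and the match with at most 1 mismatch were not counted in other genes, so only the exact word has a comparison.

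The first question was how many tRNA genes had an IDR peak nearby. A summit lay within 1 kb of the gene start for 20 of the 290 tRNA genes (6.9%), against 12.5% of the 17874 other genes. The share was 14.3% for protein-coding genes, 13.8% for 269 snoRNA genes, 12.5% for 32 snRNA genes and 6.1% for 3261 other non-coding RNA genes, so tRNA genes stood near the last of these. None of the 99 rRNA genes had a summit within 1 kb in any of the lists. In the pooled list 146 tRNA genes (50.3%) had a summit within 1 kb, against 55.1% of other genes. The count was 131 (45.2%, other genes 54.5%) in replicate 2 and 188 (64.8%, other genes 58.1%) in replicate 3, so the replicates fell on opposite sides of the other genes' share. No test was made, since neighbouring genes share peaks and there is 1 group.

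A narrower rule asked for a summit inside the tRNA gene or within 100 bp of either end. Only 3 tRNA genes (1.03%) had such an IDR summit, against 0.636% of the 1414 other genes of at most 300 bp. In the pooled list there were 17 (5.86%, against 7.14%), in replicate 2 there were 11 (3.79%, against 6.44%) and in replicate 3 there were 40 (13.8%, against 7.92%). In the IDR and pooled lists both shares were thus close to those of other short genes.

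The 20 tRNA genes shared 13 IDR summits, of which 7 had 1 tRNA gene in reach, 5 had 2 and 1 had 3. Of the 13 summits, 9 were no more than 500 bp from the transcription start site (TSS) of a protein-coding gene, 2 lay at tRNA genes by the 100 bp rule, 2 lay at neither, and none lay at both. Of all 2290 IDR summits, 1394 (60.9%) were as close to a protein-coding TSS, next to 69.2% of the 13. Those at a protein-coding TSS served 13 of the 20 tRNA genes. The limit was wider for a TSS than for a tRNA gene, so the split does not assign summits to genes. At 250 bp for both, 6 of the 13 lay at a protein-coding TSS, and 9 tRNA genes had an IDR summit. Some counted at a TSS were nearer the tRNA gene, as at tRNA:Pro-CGG-2-3 (119 bp, TSS 328 bp) and tRNA:Thr-AGT-1-4 (119 bp, TSS 376 bp). Signal values of the 13 summits ran from 82.6 to 226 with a median of 113, next to a median of 109.0 and a range of 75.8 to 1970 over all IDR peaks. Their ranks ran from 212 to 1948, with 7 of 13 in the upper 1145 peaks, so they were spread through the list. All 13 had a q of 0.01 or less in replicate 3 and 8 of 13 had one in replicate 2.

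**Figure D1:**
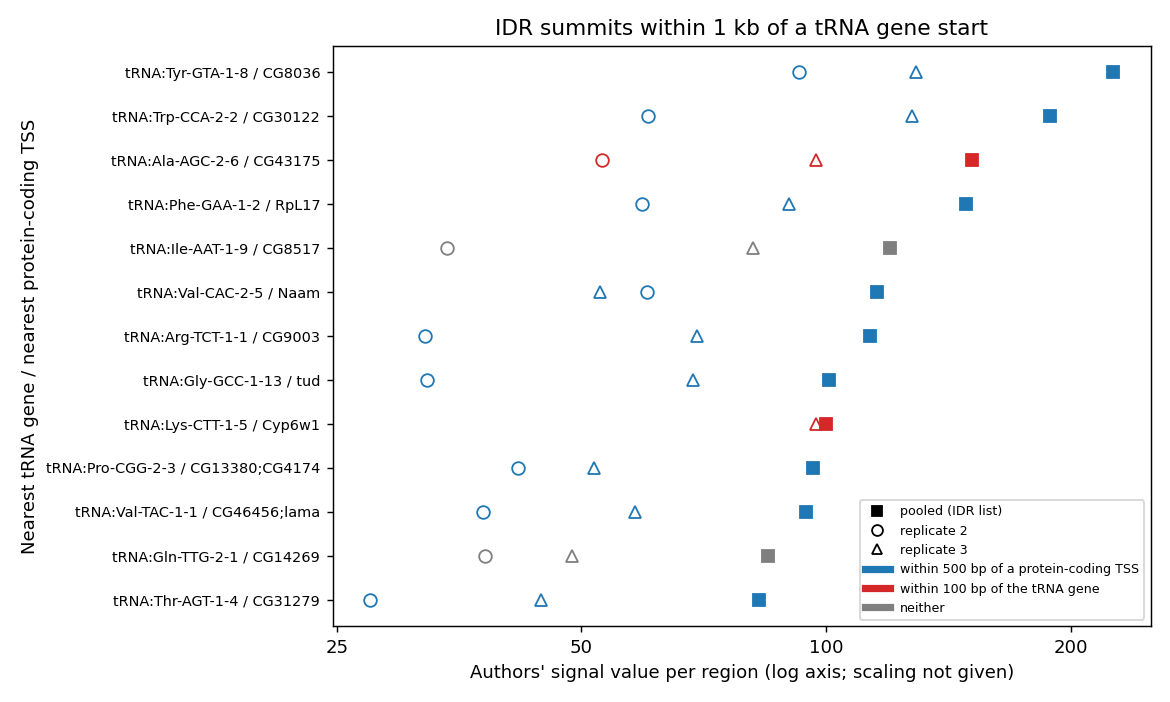
Authors' signal value (log axis, scaling not given) of the 13 IDR summits within 1 kb of a tRNA gene start, in the pooled list (squares), replicate 2 (circles) and replicate 3 (triangles), coloured by where the summit lies. Of the 13, 9 are within 500 bp of a protein-coding TSS and 6 within 250 bp. The summit at tRNA:Lys-CTT-1-5 has no circle because no region of replicate 2 overlaps it.

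The 2 summits at tRNA genes both lay between a pair of tRNA genes that point away from each other. The stronger lay between tRNA:Ala-AGC-2-6 and tRNA:Pro-TGG-1-4, 69 bp upstream of the alanine gene and 162 bp upstream of the proline gene, and tRNA:Ala-AGC-2-7 started 920 bp away. Its region, 3R:17645250-17645645, had a signal value of 151.3 in the IDR list (rank 552), 53.1 in replicate 2 (rank 794) and 97.1 in replicate 3 (rank 481). Both replicates thus held it well inside their stronger regions, with a q under 0.01 in each. The nearest protein-coding TSS, of CG43175, was 761 bp from the summit. The whole stretch between both genes, 230 bp at 3R:17645380-17645609, is printed on the plus strand to show what lies under the summit, with the 21 bases centred on it in capitals.
between Ala-AGC-2-6 and Pro-TGG-1-4: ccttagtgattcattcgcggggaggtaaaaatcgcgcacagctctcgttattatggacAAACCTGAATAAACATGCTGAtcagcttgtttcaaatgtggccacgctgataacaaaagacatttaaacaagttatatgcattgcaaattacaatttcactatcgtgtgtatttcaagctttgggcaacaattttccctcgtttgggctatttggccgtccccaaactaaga

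The other such summit lay between tRNA:Lys-CTT-1-5 (lysine) and tRNA:Arg-ACG-1-4 (arginine), 27 bp and 92 bp upstream of their starts, in the region 2R:6171397-6171792. Its signal value was 99.9 in the IDR list (rank 1346) and 97.2 in replicate 3 (rank 479), and no region of replicate 2 overlapped it. Only 8 of the 2290 IDR peaks overlapped no region of replicate 2, and this was the 1 of them within 1 kb of a tRNA gene. The nearest protein-coding TSS, of Cyp6w1, was 2089 bp away, so by distance this summit was the more clearly separate from protein-coding genes.

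**Figure D2:**
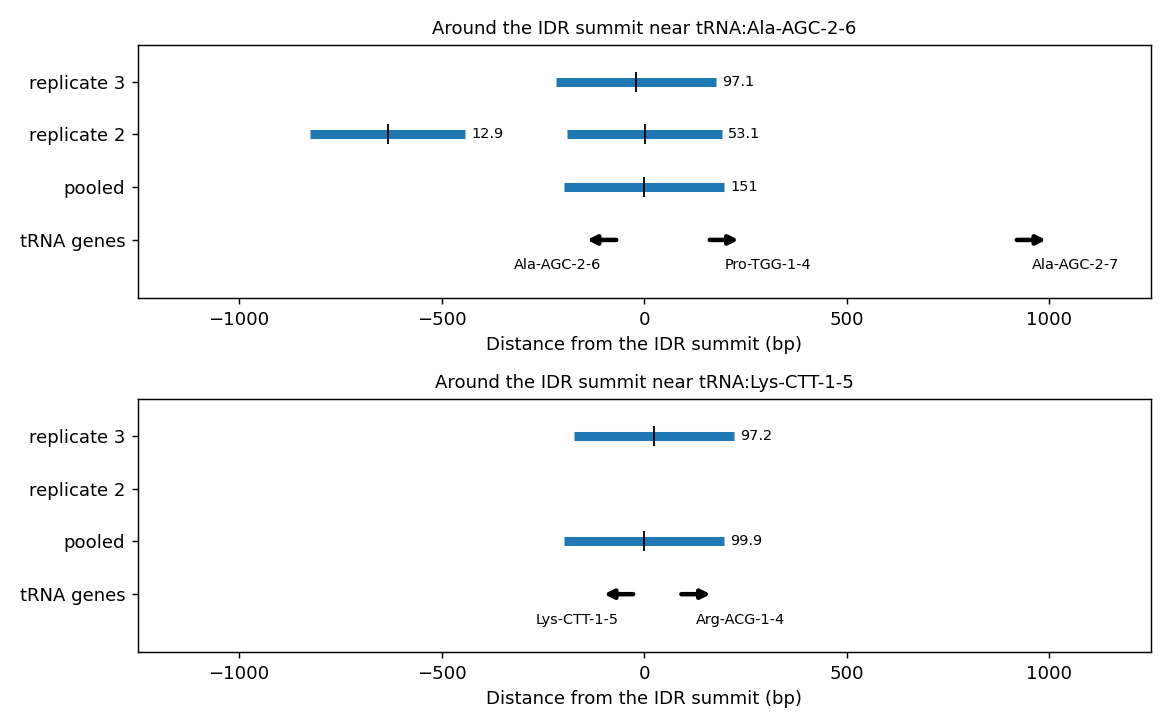
Regions (blue bars), summits (ticks) and authors' signal values (numbers) around both IDR summits at tRNA genes, drawn by distance from the IDR summit in bp with tRNA genes as arrows in their direction of transcription. Both summits sit between 2 tRNA genes that point apart, and replicate 2 has a region at the first (53.1) and none at the second.

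The 9 summits at a protein-coding TSS stood beside genes of varied kinds. The strongest, 3R:8669201-8669596, lay 225 bp upstream of tRNA:Tyr-GTA-1-8 and 694 bp upstream of tRNA:Tyr-GTA-1-7, and 219 bp from a TSS of CG8036. Its signal value was 225.6 in the IDR list (rank 212), 92.7 in replicate 2 and 128.8 in replicate 3, the highest of the 13 in all of these lists. Next came a summit at 2R:18639208-18639307, 272 bp upstream of tRNA:Trp-CCA-2-2 and 511 bp downstream of the start of tRNA:Gly-GCC-1-9, but only 15 bp from a TSS of CG30122. It had 188.5 in the IDR list, 60.4 in replicate 2 and 127.7 in replicate 3.

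A summit at X:6744239-6744343 lay 269 bp downstream of the start of tRNA:Phe-GAA-1-2 and 36 bp from a TSS of RpL17, which encodes a protein of the large ribosomal subunit. It had 148.8 in the IDR list, 59.4 in replicate 2 and 90.1 in replicate 3. The summit near tRNA:Val-CAC-2-5, an intronic gene in Naam (nicotinamide amidase), lay 415 bp from a TSS of Naam and had 115.6 in the IDR list, 60.1 in replicate 2 and 52.7 in replicate 3. It was the only one of the 13 with a higher value in replicate 2 than in replicate 3, though values of separate lists are not on a shared scale, and its rank was 608 in the first and 1889 in the second.

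The summit near tRNA:Arg-TCT-1-1 and tRNA:Met-CAT-1-1 lay 733 bp and 943 bp from their starts and 90 bp from a TSS of CG9003. It had 113.3 in the IDR list, 32.1 in replicate 2 and 69.3 in replicate 3. The summit near tRNA:Gly-GCC-1-13 and tRNA:Trp-CCA-2-6 lay 402 bp and 509 bp from their starts and 64 bp from a TSS of tud, the germ plasm gene tudor. It had 100.7 in the IDR list, 32.3 in replicate 2 and 68.6 in replicate 3. Both stood closer to the protein-coding start than to the tRNA genes.

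The remaining 3 of these summits were weaker. The one 119 bp upstream of tRNA:Pro-CGG-2-3 lay 328 bp from a TSS shared in distance by CG13380 and CG4174, with 96.4 in the IDR list, 41.7 in replicate 2 and 51.8 in replicate 3. In replicate 2 its summit fell within 100 bp of the tRNA gene and within 500 bp of the TSS. The one 926 bp upstream of tRNA:Val-TAC-1-1 lay 71 bp from TSSs of lama and CG46456, with 94.5 in the IDR list, 37.8 in replicate 2 and 58.2 in replicate 3. The one 119 bp upstream of tRNA:Thr-AGT-1-4 lay 376 bp from a TSS of CG31279, with 82.6 in the IDR list, 27.5 in replicate 2 (rank 3090) and 44.6 in replicate 3 (rank 2643). It was the last of the 13 in the IDR list and in both replicates' own lists among those that held it.

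Of the 13, 2 summits lay neither at a tRNA gene nor within 500 bp of a protein-coding TSS. One was 231 bp upstream of tRNA:Gln-TTG-2-1, whose sequence is printed above, and 8053 bp from the nearest protein-coding TSS, of CG14269. It had 84.9 in the IDR list (rank 1854), 38.0 in replicate 2 (rank 1547) and 48.6 in replicate 3 (rank 2247). Its summit was the farthest of the 13 from any protein-coding start, and the 201 bases centred on it, X:3427654-3427854, are printed on the plus strand with the 21 bases at the summit in capitals.
summit near Gln-TTG-2-1: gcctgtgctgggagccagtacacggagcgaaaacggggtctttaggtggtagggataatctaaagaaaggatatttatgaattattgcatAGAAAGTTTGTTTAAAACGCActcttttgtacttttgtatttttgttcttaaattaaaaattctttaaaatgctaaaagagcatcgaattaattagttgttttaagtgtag

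The other of them, 2R:19714873-19715268, was 494 bp upstream of tRNA:Ile-AAT-1-9 and 995 bp from a TSS of CG8517, with 120.0 in the IDR list, 34.2 in replicate 2 and 81.4 in replicate 3.

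Short words were looked for in the 100 bp on either side of each summit, in both directions. The p53 half-site (purines, C, A or T, G and pyrimidines in turn) was present at none of the 13 summits near tRNA genes and at 104 of all 2290 IDR summits (4.54%), and a full site, here 2 half-sites no more than 1 bp apart with at most 3 mismatches over both, at none of the 13 and at 165 of all (7.21%). This count depended on the spacer. With up to 2 bp, a setting added after seeing the data, 1 of the 13 (7.69%) had a full site, the summit between tRNA:Ala-AGC-2-6 and tRNA:Pro-TGG-1-4, against 9.83% of all. With up to 13 bp it was 4 of the 13 (30.8%) against 27.6% of all, so at each setting the share was near or below that of the whole list. The word TATCGATA, known as that of the promoter factor DREF, was present at 1 of the 13, beside tRNA:Trp-CCA-2-2, and at 6.51% of all. The M1BP word GGTCACAC was present at 1 of the 13, beside tRNA:Arg-TCT-1-1, and at 4.72% of all. The same summit held the 1 match to TATAAA, a word present at 23.2% of all. The exact B box word was present at 4 of the 13 (30.8%) and at 49 of all 2290 (2.14%). The 4 were those beside tRNA:Lys-CTT-1-5, tRNA:Trp-CCA-2-2, tRNA:Arg-TCT-1-1 and tRNA:Pro-CGG-2-3, and only the window of the first reaches a tRNA gene, the others standing 272, 661 and 119 bp from the nearest one. With 13 summits these counts describe the windows only. No windows away from IDR summits were searched, so whether any word is more frequent at IDR summits than elsewhere was not tested.

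The distance rule had a cutoff, and genes stood on both sides of it. Just inside 1 kb were tRNA:Ala-AGC-2-7 at 920 bp, tRNA:Val-TAC-1-1 at 926 bp and tRNA:Met-CAT-1-1 at 943 bp. Just outside were tRNA:Met-CAT-1-2 at 1007 bp, tRNA:Val-CAC-2-4 at 1135 bp, tRNA:Ile-TAT-1-2 at 1142 bp and tRNA:iMet-CAT-1-4, an initiator methionine gene, at 1159 bp. The median distance from a tRNA gene start to the nearest IDR summit was 16616 bp, and for protein-coding genes it was 14403 bp.

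Summits were next counted by distance from the gene start, and a summit in reach of several genes was counted for each of them. Within 200 bp of a tRNA gene start there were 0.0517 IDR summits per kb and gene, against 0.0302 at 200 to 1000 bp and 0.0414 at 1000 to 2000 bp. For protein-coding genes the same values were 0.226, 0.0380 and 0.0222. The IDR summits were thus concentrated at protein-coding starts far more than at tRNA starts. The 200 bp before tRNA starts held 6 pairs of a gene and an IDR summit, and the 200 bp after them none. Both IDR summits at tRNA genes were counted for each gene of the pair around them, so the distinct summits were fewer. In replicate 2 the tRNA values were 0.181, 0.317 and 0.291, which is lowest next to the start, and in replicate 3 they were 0.560, 0.446 and 0.391, which is highest next to the start. For snoRNA and snRNA genes replicate 2 gave 0.241 within 200 bp and replicate 3 gave 0.457. The pooled list gave 0.267, 0.321 and 0.316 for tRNA genes.

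**Figure D3:**
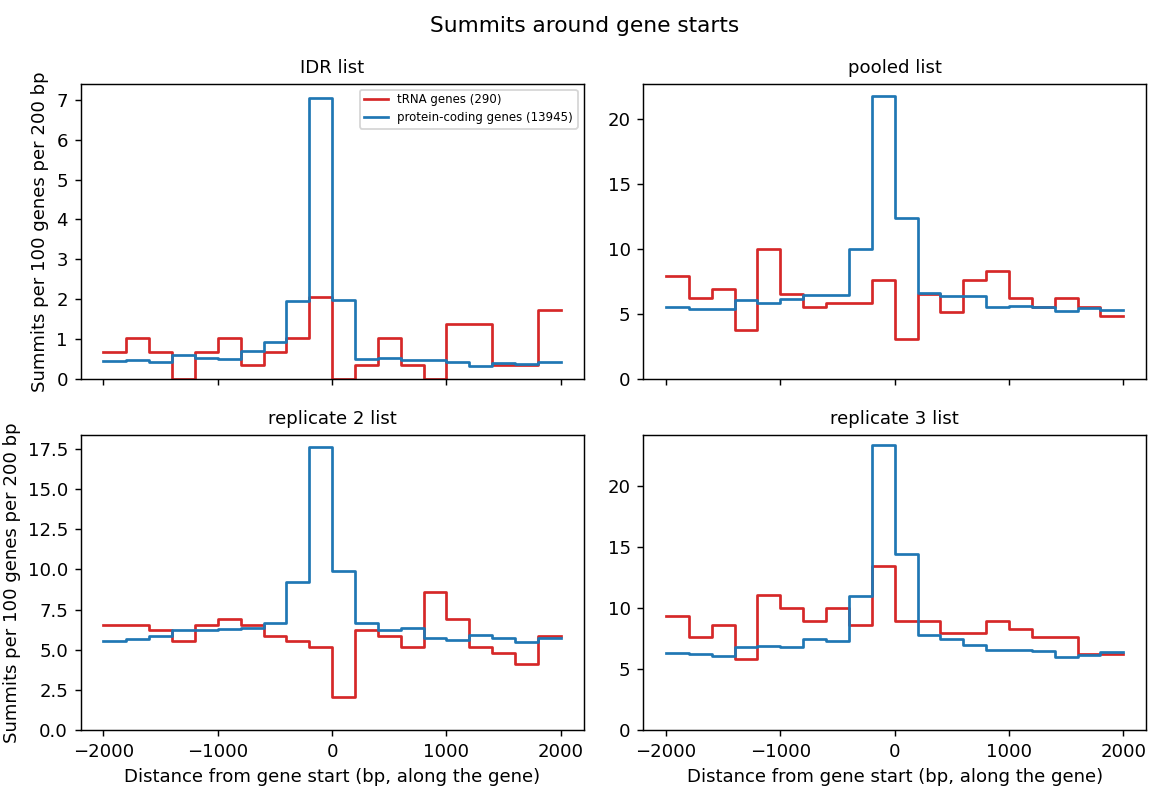
Summits per 100 genes in 200 bp steps from 2 kb before to 2 kb after the gene start, for 290 tRNA genes (red) and 13945 protein-coding genes (blue), in the 4 lists. A summit in reach of several genes is counted for each of them. The blue line peaks just before the start in every list, while the red line is low just after the start in the IDR list, the pool and replicate 2, and is highest just before it in the IDR list and replicate 3.

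Whether a tRNA gene had an IDR summit went with its distance from protein-coding starts. Of 79 tRNA genes within 1000 bp of a protein-coding TSS, 15 (19.0%) had an IDR summit within 1 kb, and of the 211 farther away 5 (2.37%) did. For other non-coding RNA, snoRNA and snRNA genes the same shares were 148 of 1026 (14.4%) and 92 of 2536 (3.63%). In finer steps the tRNA count was 8 of 32 genes at up to 500 bp, 7 of 47 between that and 1000 bp, 3 of 44 from there to 2000 bp and 2 of 167 beyond. The median distance to a protein-coding TSS was 2895 bp for tRNA genes and 2350 bp for the other non-coding genes.

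In the pooled list the shares were 60.8% for tRNA genes near a protein-coding TSS and 46.4% for those farther away, next to 60.1% and 37.3% for the other non-coding genes. Replicate 3 had summits within 1 kb of 63.0% of the tRNA genes far from a protein-coding TSS and of 40.0% of such other non-coding genes. In replicate 2 these shares were 41.2% and 41.6%. The higher share at distant tRNA genes was therefore seen in 1 replicate and not in the other, and it was not tested.

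The replicates differed in how many summits lay at tRNA genes themselves. Replicate 2 had 11 and replicate 3 had 40, a ratio of 3.636, and 3 genes had one in both, which is 27.3% of the first and 7.5% of the second. These 3 were tRNA:Ala-AGC-2-6, tRNA:Arg-TCG-2-3 and tRNA:Arg-ACG-1-5. For other genes of at most 300 bp the counts were 91 and 112 with 24 in both (26.4% and 21.4%). Within 1 kb of the start the replicates shared 96 tRNA genes, 73.3% of those in replicate 2 and 51.1% of those in replicate 3, and 67 of the 290 had a summit in neither.

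The excess in replicate 3 lay among weak regions. Among the 5000 strongest regions of each replicate, 2 tRNA genes had a summit at the gene in replicate 2 and 4 in replicate 3. At 10000 regions the counts were 4 and 12, and at 20000 they were 8 and 26. The same counts for other short genes were 15 and 21, 32 and 45, and 64 and 81. Of the summits at tRNA genes, 2 in replicate 2 and 3 in replicate 3 had a q of 0.01 or less. Of the 290 genes 98 lie on arm 2R, and they held 26 of the 40 in replicate 3 and 4 of the 11 in replicate 2. On the other arms the counts were 14 and 7, a ratio of 2. For other short genes the counts on 2R were 32 in replicate 3 and 13 in replicate 2, of 389 genes, and on the other arms 80 and 78, of 1025. On 2R replicate 3 thus had more in both kinds of gene, by a larger factor for tRNA genes. On the other arms the counts of other short genes were close, while those of tRNA genes were not. The 40 genes lay in 30 clusters, so the count did not come from a few clusters. Depth and quality of the libraries were not used here, and their part in the difference was not tested.

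**Figure D4:**
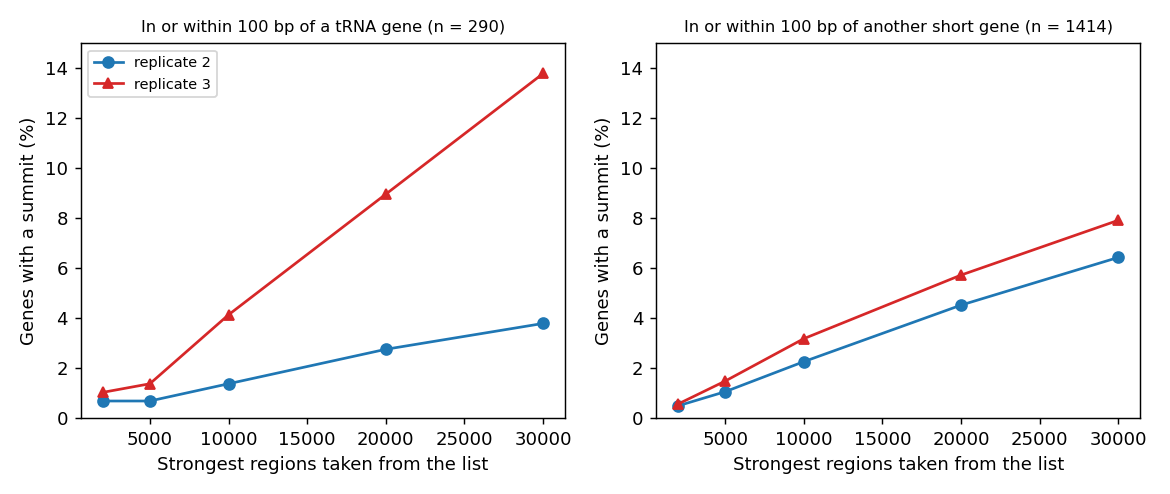
Share of genes (%) with a summit in or within 100 bp of the gene against the number of strongest regions taken from each replicate's list, for tRNA genes (left) and for other genes of at most 300 bp (right). At 30000 regions replicate 3 (triangles) reaches 13.8% of tRNA genes and replicate 2 (circles) 3.79%, while for the other short genes the values are 7.92% and 6.44%.

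Outside the IDR list, 10 more tRNA genes were the strongest with a pooled summit at the gene. The first was tRNA:Glu-TTC-1-5 (glutamate), with 45.5 in the pool at a q of 0.123. It had 38.6 in replicate 3 at a q of 0.0033, and no summit at the gene in replicate 2. tRNA:Arg-TCG-2-3, in an intron of pyd, had 37.9 in the pool, 17.7 in replicate 2 and 20.6 in replicate 3. tRNA:Arg-ACG-1-5 had 31.5 in the pool, 16.8 in replicate 2 and 13.2 in replicate 3. Both arginine genes were thus weak but present in both replicates, and neither had a pooled q of 0.01 or less.

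The next had a summit at the gene in the pool and replicate 3 and not in replicate 2. They were tRNA:Phe-GAA-1-4 (37.5 in the pool), tRNA:Glu-TTC-1-2 in mrj (36.4), tRNA:Val-AAC-2-2 in hts (33.8), tRNA:Cys-GCA-1-1 in Cht7 (31.8) and the selenocysteine gene tRNA:SeC-TCA-1-1 (29.3). tRNA:Lys-CTT-1-2, in an intron of EcR, had 29.3 in the pool and 22.6 in replicate 2 and none in replicate 3. tRNA:Gly-TCC-2-2 had 29.3 in the pool and a summit at the gene in neither replicate. None of these 7 had a pooled q of 0.01 or less, and the pooled list's median signal value was 31.5, so they stood close to it.

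Over all 118 pooled summits within 1 kb of a tRNA gene, 28 lay at a protein-coding TSS, 16 at a tRNA gene and 74 at neither. The share at a protein-coding TSS was not counted over all pooled regions, so the 28 have no comparison. The median signal value was 45.1 at a protein-coding TSS and 31.7 at a tRNA gene, next to 31.5 over all pooled regions. A q of 0.01 or less was held by 19 of the 118 (16.1%, against 12.5% of all pooled regions), and 2 of those 19 lay at tRNA genes. In replicate 2 the count was 8 of 115 (6.96%, against 6.16% of all), and in replicate 3 it was 17 of 166 (10.2%, against 14%).

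By amino acid, IDR summits within 1 kb were spread thinly, with at most 2 genes for any of them. Alanine, arginine, glycine, proline, tryptophan, tyrosine and valine had 2 genes each, of 17, 26, 20, 17, 8, 10 and 15 genes. Glutamine, isoleucine, lysine, elongator methionine, phenylalanine and threonine had 1 each. Leucine (22 genes), serine (20), glutamate (19), aspartate (14), asparagine (10), cysteine (7), initiator methionine (6), histidine (5) and selenocysteine (1) had none. In the pooled list all 8 tryptophan genes had a summit within 1 kb and serine had 6 of 20, next to 50.3% of all tRNA genes. The tryptophan signal values ran from 24.8 at tRNA:Trp-CCA-1-1 and tRNA:Trp-CCA-1-2 to 188.5 at tRNA:Trp-CCA-2-2. All 11 isoleucine genes had a summit within 1 kb in replicate 3, against 4 in replicate 2 and 3 in the pool. In replicate 3 the share of all tRNA genes was 64.8%. Of the isoleucine genes 5 lay in 1 cluster, and neighbouring genes can share a summit, so the genes of an amino acid are not separate cases.

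**Figure D5:**
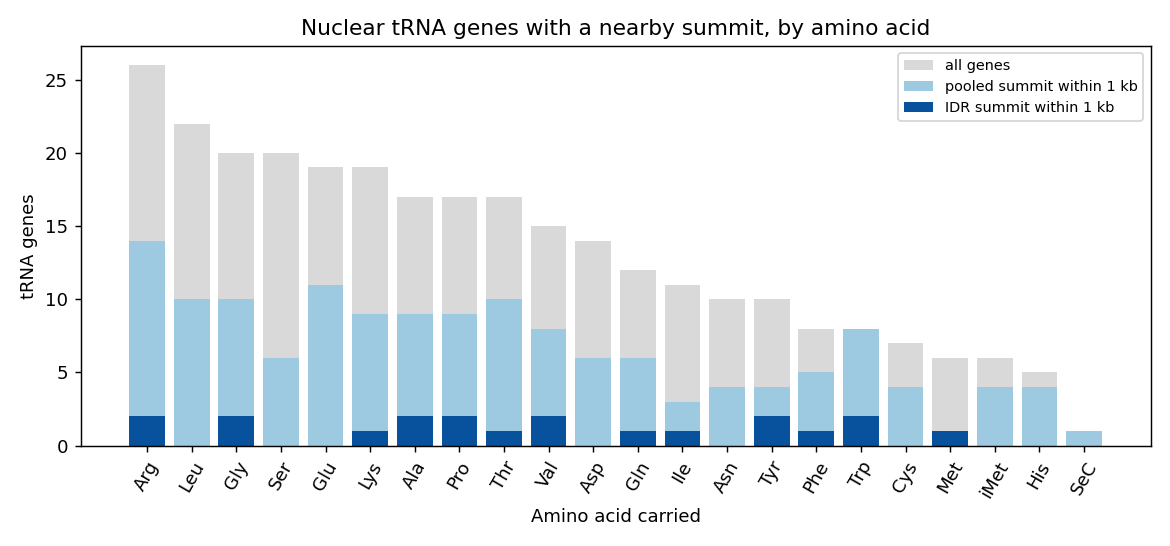
Number of nuclear tRNA genes by the amino acid carried (grey), of these with a pooled summit within 1 kb of the start (light blue) and with an IDR summit within 1 kb (dark blue). No amino acid has more than 2 genes with an IDR summit, and all 8 tryptophan genes have a pooled summit, next to 50.3% of all tRNA genes.

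The tRNA genes formed 144 clusters when starts within 5 kb of the next were joined, of which 76 were single genes, 58 had 2 to 4 genes, 8 had 5 to 9 and 2 had 11. In 13 clusters (9.03%) at least 1 member had an IDR summit within 1 kb. These were 6 of the single genes (7.89%), 6 of the clusters of 2 to 4 (10.3%), none of the 8 middle-sized clusters and 1 of the 2 largest. Of the 10 clusters with 5 or more genes, 1 had a peak, a share near that of all clusters, although larger clusters have more members that can count. By gene the counts were 6 of 76 single genes and 12 of 142 in clusters of 2 to 4. They were 0 of 50 in clusters of 5 to 9 and 2 of 22 in the largest.

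The largest cluster with a peak, 2R:6161535-6171759, holds 11 genes for arginine, asparagine, isoleucine and lysine, and its 2 genes with an IDR summit were tRNA:Lys-CTT-1-5 and tRNA:Arg-ACG-1-4 at its end. In it 6 genes had a pooled summit within 1 kb, 7 had one in replicate 2 and 6 in replicate 3. The other cluster of 11, 3R:17617761-17631750, with genes for alanine, proline, threonine and valine, had no IDR summit and 5 genes with a pooled one, 2 in replicate 2 and 5 in replicate 3. The cluster at 3R:8139533-8141042, with 5 arginine genes and 1 asparagine gene, had a summit within 1 kb of all 6 in replicate 3 and of none in replicate 2. The cluster at X:14014814-14017284, with 5 arginine and 2 serine genes, had none in the IDR list, the pool or replicate 2. In replicate 3, 2 of its genes had a summit within 1 kb.

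The place and copy number of the genes were also compared. Of 127 tRNA genes in protein-coding introns, 5 (3.94%) had an IDR summit within 1 kb, as had 1 of 7 that overlap an exon and 14 of 156 outside protein-coding genes (8.97%). By arm the counts were 0 of 41 on 2L, 9 of 98 on 2R, 2 of 48 on 3L, 7 of 79 on 3R and 2 of 24 on X. Genes with a unique sequence had 4 of 52 (7.69%), those with 2 to 4 identical copies 2 of 58 (3.45%) and those with 5 or more 14 of 180 (7.78%). All 3 genes with an IDR summit at the tRNA were of the last kind. No source used here says how reads that match several identical copies were treated, and the part of such reads in these counts was not tested.

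Neighbouring tRNA genes at most 500 bp apart were compared by direction, a comparison chosen after the positions of both IDR summits had been seen. Of 19 pairs that point apart, 2 had an IDR summit between the genes, 5 a pooled one, 1 one in replicate 2 and 9 one in replicate 3. The 2 with an IDR summit are the pairs that prompted the comparison, so the IDR counts by direction were fixed beforehand. Both are also among the 5 in the pool and the 9 in replicate 3, and 1 of them is the only pair in replicate 2. Of 21 pairs that point towards each other, none had one in the IDR list, the pool or replicate 3, and 1 had one in replicate 2. Of 54 pairs in the same direction, none had an IDR summit, 3 a pooled one, 2 one in replicate 2 and 4 one in replicate 3. The median gap was 192, 214 and 234 bp, so the windows were of similar length.

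Beside the pairs already described, the pair tRNA:iMet-CAT-1-4 and tRNA:iMet-CAT-1-5 on 3L, 330 bp apart, had a summit between the genes with 50.1 in the pool and 43.9 in replicate 3, the latter with a q under 0.01. The pair tRNA:Phe-GAA-1-4 and tRNA:Phe-GAA-1-5, 163 bp apart, had 37.5 in the pool and 31.5 in replicate 3. Neither had a summit between the genes in replicate 2, and the pattern by direction thus rests on replicate 3 and on the pool that includes it.

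The exact B box word was present in 12 of the 17 tRNA genes with a pooled summit at the gene (70.6%) and in 23 of 40 in replicate 3 (57.5%), against 55.2% of all 290. In replicate 2 it was present in 5 of 11 (45.5%). In replicate 3, which holds the most of these genes, the share with the word was thus near that of all tRNA genes.

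The genes that make, process and modify tRNAs were described beside the tRNA genes, by an IDR summit within 1 kb of any of their TSSs, which 15.5% of protein-coding genes had. Of 30 listed Pol III genes 26 were matched to the annotation and of 34 listed modification genes 24, and the symbols listed for TFIIIC subunits were among those not matched, so the shares are of the matched genes. A pooled summit within 1 kb was held by 61.1% of protein-coding genes, and by 21 of 26 genes for Pol III subunits and assembly factors, 18 of 20 for tRNA end processing and splicing and 19 of 24 for tRNA modification. Whether the TSS of an unlisted gene lay nearer to a counted summit was not examined. Of the 26 genes for Pol III subunits and assembly factors, 8 had an IDR summit (30.8%). The strongest was Bdp1 with 275.5 (rank 149), with 131.0 in replicate 2 and 152.2 in replicate 3. Polr2H (201.0, rank 277) and Polr2F (166.6, rank 449), which encode subunits shared by all 3 RNA polymerases, came next. Brf followed with 160.2 (rank 486), with 80.6 in replicate 2 and 78.6 in replicate 3, and like Bdp1 it encodes a part of TFIIIB. Lower values were found at Polr1D (120.4), shared by Pol I and Pol III, at Pbp95 (87.5), a part of the factor for snRNA genes, and at Polr3D (82.1), which encodes a Pol III subunit. Polr3A, the largest subunit, had no summit within 1 kb in any list.

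Of 20 genes for tRNA end processing and splicing, 3 had an IDR summit (15%). They were Rpp20, a protein of RNase P, with 140.4, Rtca, an RNA cyclase, with 78.4, and CG2100, listed as the CCA-adding enzyme, with 75.8 at rank 2289, next to last of the list. This share was near that of protein-coding genes at large. The summit lay 594 bp from the TSS at CG2100, and 353 bp from it at Pbp95 of the Pol III list.

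Of 24 genes for tRNA modification, 10 had one (41.7%). Tcs5, a part of the complex that makes the threonylcarbamoyl modification, had 425.6 (rank 59), with 204.0 in replicate 2 and 223.8 in replicate 3, and was the strongest of all these genes. Elp5 (197.9), Elp6 (130.7) and Elp4 (107.6) belong to Elongator, which modifies the wobble uridine. Trmt6 (176.4) and Trmt61 (139.5) encode both parts of an adenosine methyltransferase, Dus2 (168.5) and Dus3 (145.2) make dihydrouridine, wuho (139.6) encodes a tRNA guanosine methyltransferase subunit, and Pus1 (78.0) makes pseudouridine. The summits of these genes lay close to the TSS, from 31 bp at Elp5 to 238 bp at Elp6, apart from 677 bp at Pus1.

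Among 9 other Pol III transcribed RNA genes, 3 had an IDR summit, against 12.5% of all genes other than tRNA genes, and these 3 genes shared 2 summits. snRNA:U6:96Ab and snRNA:U6:96Ac, which encode the U6 RNA of the spliceosome, shared 1 summit with 90.6 in the IDR list, 35.3 in replicate 2 and 50.6 in replicate 3, 443 bp and 80 bp from their starts. snRNA:7SKa had 76.1 at rank 2270, with 22.3 in replicate 2 and 39.3 in replicate 3, 156 bp from its start. RNaseMRP:RNA had a summit within 1 kb in the pool (45.3) and replicate 3 (34.6) and none in replicate 2 or the IDR list. The 7SL genes, 7SLRNA:CR32864 and 7SLRNA:CR42652, had none in any list.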

How the data were processed

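The authors deposited ChIP-seq peak lists for each replicate, for the pooled replicates and for peaks selected by IDR, each in the dm6 and dm3 builds. Per the deposited provenance lists 1 control library served both replicates (not used here). In each dm6 list the authors' signal value per region and the deposited −log10 q-value per region were used, the former only to describe, rank and filter regions within a list. No source used here names the aligner, the peak caller, the IDR threshold or the treatment of reads with several matches. The dm3 lists were not used. Depth is unknown, so no interval was given.

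Summits were set against gene models of Ensembl release 115 in Python 3.11.15 with pandas 2.3.3, numpy 2.4.6 and matplotlib 3.10.9. Coordinates are dm6, 1-based. The gene start is the annotated 5′ end. A summit counted within 1 kb of the start, at the tRNA when in or within 100 bp of the gene, and at a protein-coding TSS within 500 bp. All 290 nuclear genes had the same coordinates in the RefSeq annotation. The counting was tested on simulated summits with known positions, and all planted hits were found. There is 1 group of 2 replicates, so no test was made. Shares are given beside those of all other genes, or of other genes of at most 300 bp.

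The rule for the members uses the annotation alone, but the rule, the gene lists and the comparisons were chosen with earlier results of these data known. The named genes are those with an IDR summit within 1 kb, the 10 strongest others with a pooled summit at the gene, the nearest protein-coding genes, and list members or other Pol III RNA genes with a peak. Other genes named were chosen after their values were seen. Of the lists, 14 symbols had no match, and 2 that name unrelated fly proteins were removed. Alternatives took each replicate's own list, a stricter list, and other distances and cluster gaps. The values of 1 list member are not reported here.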

Additional observations from a re-analysis of the deposited data

How the results depend on the processing

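Counts rest on thresholds that few genes pass, so they move with them. The 20 tRNA genes with an IDR summit within 1 kb became 12 among the 1145 strongest IDR peaks, 13 within 500 bp, 40 within 2000 bp and 6 when the region had to cover the start, and were 19 to 23 when 1 replicate's own strongest regions replaced the IDR list. The 3 genes with an IDR summit at the tRNA became 1 among those 1145 and 9 within 250 bp (2 to 3 by replicate). The 17 with a pooled summit at the tRNA became 3 at a q of 0.01 or less, 52 within 250 bp, 2 to 3 when as many regions as the IDR list holds were taken from 1 replicate, and 9 in replicate 2 and 35 in replicate 3 when as many as the pool holds were taken. The 13 clusters became 7 among those 1145 and 23 within 2000 bp. The 9 summits at a protein-coding TSS became 5 of 7 among those 1145. With other distances to the TSS they became 6 of 13 at 250 bp and 11 of 13 at 1000 bp. The replicates' ratio of 3.636 became 1.5 among the 2000 strongest regions, 2 among the 5000 strongest, 2 without arm 2R and 2.256 within 250 bp. The cause of these changes was not tested. Full p53 sites at the 13 summits went from 0 to 1 and 4 with longer spacers. Of 43 alternatives 22 stayed within 1.5 times the count. The alternatives for the ratio, for each replicate's own list at the size of the pool, for pairs and for spacers were chosen after seeing the data. No paired analysis was possible because there is 1 group. Unknown depth and 2 replicates limit every count.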
